A study of Mus musculus with 9 samples.

Results

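The genes described here are 38 members of the peroxisome proliferator-activated receptor (PPAR) and fatty acid oxidation programme, taken by gene symbol from the 21959 genes of a colon count table. Poly-A RNA sequencing measured their transcripts in 9 mouse libraries, 3 in each of 3 groups. The Blank mice were wild type and untreated, the Model mice were wild type and received dextran sulfate sodium (DSS, a polymer that injures the colon lining), and the CDs mice were wild type and received DSS together with carbon dots made from lotus node charcoal. Carbon dots are carbon particles of nanometre size. A group is known only by its treatment, with strain, age, doses and the time course not given in the sources used here. The filter on low counts left 37 of the 38 genes, which were among the 14921 genes tested, and removed Fabp1.

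PPARs are nuclear receptors that bind fatty acids and their derivatives, pair with a retinoid X receptor and act at DNA elements made of repeated AGGTCA-like hexamers. Their targets include the proteins that take up fatty acids, carry them as carnitine esters into mitochondria and cut them by β-oxidation, and also secreted and regulatory proteins such as Angptl4 and Pdk4. Colonocytes are known for burning short-chain fatty acids, above all butyrate from gut bacteria, by β-oxidation in mitochondria.

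Levels below are CPM, read counts scaled to library size by TMM, which suit comparison of 1 gene between libraries, and differences are log2 fold changes with their standard error (SE). Rankings of single genes by level use the deposited FPKM, which divides by gene length. Sums over several genes, and ratios to such sums, are in CPM unless FPKM is named. Those in CPM are not corrected for gene length. A gene was called where edgeR's quasi-likelihood test gave a Benjamini-Hochberg adjusted p under 0.05 over all tested genes. The libraries held 13868864 to 19940300 counted reads. With 0 reads a gene could still have been present at 0.142 to 0.221 CPM, a bound for counting error alone that corresponds to 3 reads. Markers of the labelled tissue were present in all 9 libraries: the summed level of 14 colonocyte and epithelial markers ran from 6990 to 15929 CPM. Several libraries also held transcripts of other organs. Pancreatic acinar markers, 6 genes, summed to 5073 CPM in Model 1, 43195 CPM in Model 3 and 182 CPM in CDs 1, against 0 to 0.295 CPM in the others. Prostate genes, a list of 6 added after the data were seen, summed to 1526 CPM in Blank 2 and 173 CPM in Blank 3, against 2.03 to 3.60 CPM in the others. Counts of called members are given below with and without these libraries, and counts of members whose groups did not overlap rest on every library of the groups compared.

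Promoter sequences were examined first, since the list is defined by a receptor with a known binding element. RefSeq promoter windows of GRCm38.p6, each 300 bases from 250 before to 50 after an annotated start, were found for 34 of the 38 genes, in 37 windows. No entry was matched for Acaa2, Angptl4, Decr1 and Ppargc1b. The windows were searched on both strands for AGGTCANAGGTCA, the direct repeat bound by PPAR and RXR, with up to 2 mismatches outside the N. The repeat was found in 7 of 37 member windows (18.9%), against 3.86% of all 32851 windows in the table. The shorter hexamer AGGTCA, which the repeat contains, was in 9 of 37 member windows (24.3%), against 16.3% of all windows. At 1 mismatch or fewer the repeat was in 1 member window, that of Fabp1, against 0.554% of all windows. A match describes the letters only, and no match says nothing of binding. By the calls of Model versus Blank described below, the repeat stood in 2 of the 3 higher genes with a window (Cd36 and Creb3l3), in 1 of the 17 lower ones (Etfa) and in 3 of the 13 not called (Plin2, Rxra and Slc25a20).

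The 250 bases before the start are printed for these examples, 5′ to 3′ on the strand of the gene. Capitals mark the whole 13-base stretch found for the repeat on either strand, including its mismatched letters and the N. Cd36 (chr5:17835897-17836146, minus strand) and Creb3l3 (chr10:81092592-81092841, minus strand) are the pair that rose. Creb3l3 has a second window in the table without the repeat. Etfa (chr9:55512244-55512493, minus strand) is the gene that fell, and Plin2 (chr4:86670060-86670309, minus strand) was not called. Fabp1 (chr6:71199629-71199878, plus strand) has the closest match and was not expressed enough to test. Hadha (chr5:30154981-30155230, minus strand) is shown because its window shares 228 bases with that of Hadhb, transcribed from the other strand. Neither holds the repeat.
Cd36: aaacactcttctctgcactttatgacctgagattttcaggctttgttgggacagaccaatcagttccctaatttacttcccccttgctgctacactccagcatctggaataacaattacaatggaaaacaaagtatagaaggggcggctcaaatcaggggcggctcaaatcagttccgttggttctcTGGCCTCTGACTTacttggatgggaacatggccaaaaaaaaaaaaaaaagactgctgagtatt
Creb3l3: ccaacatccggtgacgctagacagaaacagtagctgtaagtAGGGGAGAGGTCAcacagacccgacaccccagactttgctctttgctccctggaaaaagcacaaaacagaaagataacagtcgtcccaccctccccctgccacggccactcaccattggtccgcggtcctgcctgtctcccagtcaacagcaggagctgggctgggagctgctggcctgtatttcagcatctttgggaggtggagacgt
Etfa: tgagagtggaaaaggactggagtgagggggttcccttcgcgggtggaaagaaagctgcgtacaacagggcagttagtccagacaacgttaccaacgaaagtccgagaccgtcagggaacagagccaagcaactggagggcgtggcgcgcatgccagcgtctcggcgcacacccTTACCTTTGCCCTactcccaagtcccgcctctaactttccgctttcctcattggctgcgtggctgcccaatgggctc
Plin2: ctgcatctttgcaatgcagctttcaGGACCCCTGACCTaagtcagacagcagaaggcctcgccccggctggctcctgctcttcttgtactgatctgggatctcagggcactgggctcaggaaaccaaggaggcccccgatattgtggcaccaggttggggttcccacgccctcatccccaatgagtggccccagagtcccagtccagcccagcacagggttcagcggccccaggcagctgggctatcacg
Fabp1: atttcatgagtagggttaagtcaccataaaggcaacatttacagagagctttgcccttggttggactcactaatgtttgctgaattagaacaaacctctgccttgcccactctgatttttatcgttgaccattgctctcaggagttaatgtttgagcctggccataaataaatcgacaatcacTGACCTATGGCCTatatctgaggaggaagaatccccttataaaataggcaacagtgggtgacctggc
Hadha: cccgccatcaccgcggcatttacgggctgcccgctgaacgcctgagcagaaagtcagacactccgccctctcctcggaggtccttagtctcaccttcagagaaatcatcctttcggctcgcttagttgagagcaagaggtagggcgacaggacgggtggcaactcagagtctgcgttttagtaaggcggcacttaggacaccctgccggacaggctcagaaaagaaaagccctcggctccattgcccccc

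The first comparison, Model versus Blank, asks how colon injury by DSS moved these genes. Of the 18 oxidation genes 11 fell in the Model colon, as did 3 of the 5 receptors and coactivators, while Angptl4, Creb3l3, Cd36 and Pdk4 rose. In bulk tissue, fewer cells of a type and less RNA of a gene per cell cannot be told apart. Of the 37 tested members, 4 were called higher and 18 lower, and 15 were not called. Across all tested genes 24.5% were called higher and 19.6% lower. The median log2 fold change was -0.50 over the members and -0.027 over all tested genes. The 3 Model libraries did not overlap the 3 Blank libraries for 25 members (60.9% of all tested genes), 4 above (30.1%) and 21 below (30.8%). Among the 18 genes that encode the carnitine shuttle, β-oxidation enzymes and their electron carriers, 11 fell and 0 rose, with a median log2 fold change of -0.57. No oxidation gene had an unadjusted p under 0.05 in the higher direction in edgeR, where 28% of all tested genes had, and DESeq2 called 0 higher as well. The forest plot of log2 fold changes shows Angptl4 far to the right of all other members.

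**Figure D1:**
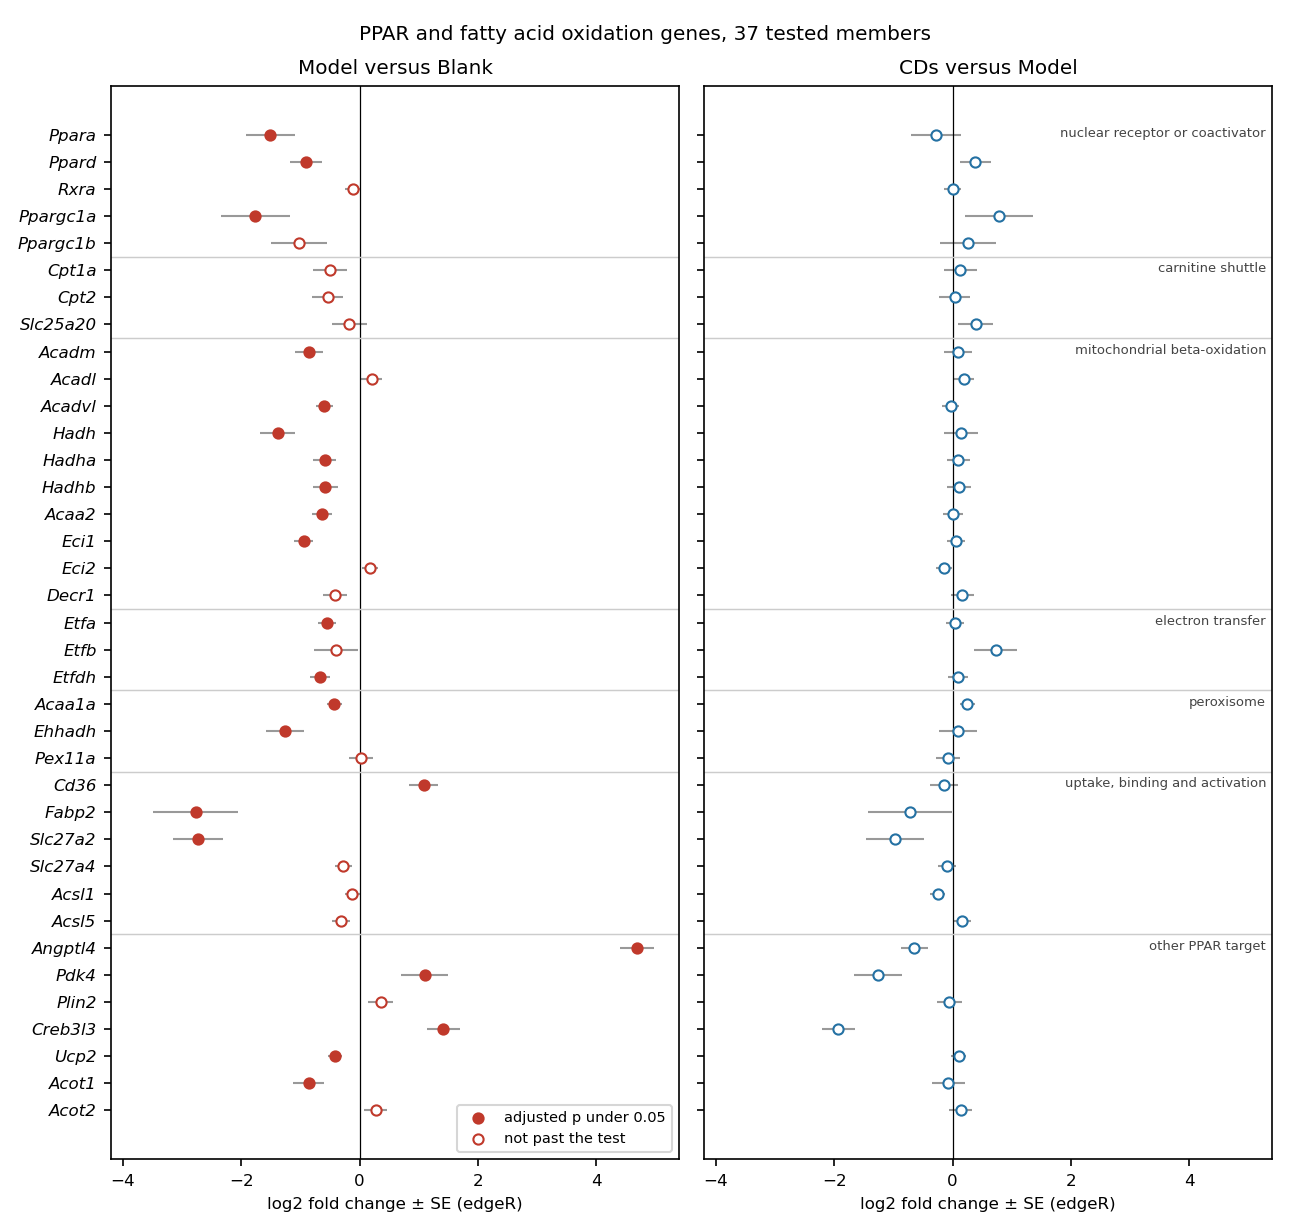
Log2 fold changes with their SE for the 37 tested members, ordered by role, in Model versus Blank and in CDs versus Model (3 libraries a group). Filled points passed an adjusted p of 0.05. In Model versus Blank the members run from -2.77 (Fabp2) to 4.69 (Angptl4), and in CDs versus Model none was called.

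The number of calls depended on single libraries more than the fold changes did. The 18 lower members became 4 without Model 3, where 9.79% of all tested genes were called lower, and 7 without Model 2 (10.4%). They became 9 without Blank 1 (12.2%) and 10 without Blank 3 (12.5%). With Model 1, Model 3 and CDs 1 left out, 3 members were higher and 23 lower, where 23.5% and 21.8% of all tested genes were. The 18 became 2, Eci1 and Slc27a2, without Blank 2 and Blank 3, the libraries with prostate transcripts, where 2.06% of all tested genes were called lower. In each of these fits with fewer lower members, a smaller share of all genes was called lower too. Without Blank 2 and Blank 3, more members were called higher than lower, as among all tested genes. For the oxidation genes, 11 became 3 without Model 3, 6 without Model 2, 6 without Blank 1, 14 without Model 1 (21.9% of all tested genes lower), 15 without the libraries with pancreatic transcripts and 1 without Blank 2 and Blank 3. The median of the 18 stayed between -0.76 and -0.45 in these and the other alternatives, with 15 to 17 of 18 below 0.

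The receptors and coactivators, which set the output of the programme, lay at or below their Blank levels. Ppara, the receptor known for driving fatty acid oxidation in liver, was measured at 8.16, 8.74 and 10.9 CPM in Blank 1 to 3, at 3.92, 3.13 and 2.75 CPM in Model and at 0.959, 2.99 and 4.12 CPM in CDs. All 6 DSS-treated libraries lay below all 3 Blank libraries. In Model it fell by 1.51 on the log2 scale (SE 0.41, adjusted p = 0.0176, edgeR). Ppard, the PPAR with a broad tissue range, had 168, 164 and 162 CPM in Blank, 122, 61.6 and 81.4 CPM in Model and 82.4, 112 and 149 CPM in CDs. The Blank values were close together and lay above every other library, and the CDs values spread up towards them. Ppard fell by 0.91 in Model (SE 0.26, adjusted p = 0.0229, edgeR). Ppargc1a, a coactivator of mitochondrial genes, had 69.5, 77.1 and 53.4 CPM in Blank, 31.5, 15.0 and 12.7 CPM in Model and 8.38, 41.0 and 52.6 CPM in CDs. CDs 3 lay just under Blank 3, whereas CDs 1 was the lowest of the 9. Ppargc1a fell by 1.76 in Model (SE 0.58, adjusted p = 0.0367, edgeR). Its relative Ppargc1b gave -1.02 (SE 0.47, adjusted p = 0.104, edgeR) and was not called. Rxra, the partner of the PPARs, gave -0.11 (SE 0.14, adjusted p = 0.536, edgeR), and its Model libraries, 90.6 to 94.7 CPM, lay inside the Blank range of 81.5 to 113 CPM. None of the 3 calls held throughout. Ppara lost it without Blank 3 (adjusted p = 0.0556), Model 2 (0.0555) or Model 3 (0.0669). Ppard lost it without any 1 of Blank 1, Blank 2, Blank 3, Model 2 and Model 3 (edgeR adjusted p from 0.0504 to 0.0775). Ppargc1a lost it without any 1 of these 5 or CDs 2 (edgeR adjusted p from 0.0531 to 0.122) and with a replicate block (0.0799), while Ppargc1b passed without CDs 1 (0.0318).

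The carnitine shuttle carries long-chain acyl groups into the mitochondrion. It had no gene called out of 3, where 24.5% of all tested genes were called higher and 19.6% lower. None of the 3 had an unadjusted p under 0.05 in edgeR. Cpt1a, the regulated entry step, had 407, 298 and 326 CPM in Blank, 332, 200 and 199 CPM in Model and 174, 295 and 330 CPM in CDs. The groups overlapped, since Model 1 lay above Blank 2 and Blank 3, and the log2 fold change was -0.50 (SE 0.28, adjusted p = 0.173, edgeR). Cpt2, the inner-membrane transferase, had 71.3, 60.7 and 67.9 CPM in Blank, 63.3, 39.9 and 35.0 CPM in Model and 33.5, 45.2 and 62.8 CPM in CDs. Here too Model 1 stood within the Blank range, and the difference was -0.54 (SE 0.26, adjusted p = 0.123, edgeR). Slc25a20, the carnitine-acylcarnitine exchanger, had 195, 169 and 164 CPM in Blank, 232, 110 and 127 CPM in Model and 141, 225 and 249 CPM in CDs. Its highest Model library exceeded every Blank library, and the difference was -0.17 (SE 0.29, adjusted p = 0.654, edgeR), turning to 0.028 without Model 2. Without Model 1, Cpt1a (-0.79, adjusted p = 0.0417, edgeR) and Cpt2 (adjusted p = 0.0215, edgeR) were called lower. Slc25a20 gave -0.68 without the libraries with pancreatic transcripts, a fit in which Model 2 stands alone in its group.

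Of the 10 genes of mitochondrial β-oxidation, 7 fell and 0 rose in Model, where 19.6% and 24.5% of all tested genes did so. Eci1, an isomerase that prepares unsaturated fatty acids for the cycle, had 27.1, 29.8 and 24.9 CPM in Blank, 16.1, 13.0 and 13.5 CPM in Model and 12.5, 17.1 and 14.6 CPM in CDs. The DSS-treated libraries all lay below the Blank libraries, with a small spread in each group. Eci1 fell by 0.95 in Model (SE 0.15, adjusted p = 0.00178, edgeR), the smallest p among the oxidation genes. Hadh, the dehydrogenase of medium- and short-chain substrates, had 251, 237 and 237 CPM in Blank, 125, 78.6 and 74.7 CPM in Model and 58.9, 128 and 119 CPM in CDs. The highest treated library, CDs 2, lay far below the lowest Blank library, and Hadh fell by 1.38 (SE 0.29, adjusted p = 0.00596, edgeR). Acadm, the medium-chain acyl-CoA dehydrogenase, had 158, 148 and 152 CPM in Blank, 100, 81.1 and 72.5 CPM in Model and 55.1, 99.3 and 115 CPM in CDs. Again the groups did not overlap, and Acadm fell by 0.85 (SE 0.24, adjusted p = 0.0200, edgeR). Acadvl (very long chains), Acaa2 (the thiolase), and Hadha and Hadhb (the subunits of the trifunctional protein) fell by 0.60, 0.63, 0.59 and 0.58, with edgeR adjusted p of 0.00923, 0.0160, 0.0315 and 0.0476. Their Model libraries also lay below all Blank libraries. Hadha and Hadhb lie head to head, 85 bp apart at chromosome 5, 30323302 to 30360160 and 30360246 to 30389591 in the deposited coordinates, with a build not given in the sources used here.

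Decr1, Eci2 and Acadl were not called. Decr1, the reductase for polyunsaturated chains, gave -0.42 (SE 0.20, adjusted p = 0.116, edgeR) with 68.5, 46.3 and 47.8 CPM in Model against 70.3, 74.2 and 72.8 CPM in Blank. Eci2, the second isomerase, gave 0.18 (SE 0.13, adjusted p = 0.303, edgeR). Acadl, the long-chain dehydrogenase, gave 0.21 (SE 0.18, adjusted p = 0.362, edgeR), with 194, 183 and 166 CPM in Blank, 275, 181 and 173 CPM in Model and 216, 249 and 251 CPM in CDs. It was the oxidation gene with the highest mean FPKM in each group (87.6 in Blank, 105 in Model and 121 in CDs). Without Model 1 its difference turned to -0.035. The calls of Eci1, Hadh and Acadvl held with any 1 library left out, and those of Hadh (adjusted p = 0.0787, edgeR) and Acadvl (0.0950) were lost without Blank 2 and Blank 3 together. Acadm lost its call without Blank 1, Model 2 or Model 3 (edgeR adjusted p from 0.0552 to 0.0768), and Acaa2 without Blank 1 or Model 3 (0.0502 and 0.0669). Hadha lost it without any 1 of Blank 1, Blank 2, Blank 3, Model 2 and Model 3 (edgeR adjusted p from 0.0556 to 0.105), and Hadhb without these 5 or CDs 2 (0.0643 to 0.158). Decr1 gained one without Model 1 (0.0276) or CDs 1 (0.0435).

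The electron carriers pass electrons from the acyl-CoA dehydrogenases to the respiratory chain. Etfdh, the membrane oxidoreductase at the end of that relay, had 98.7, 98.9 and 109 CPM in Blank, 76.1, 57.7 and 58.9 CPM in Model and 52.6, 70.5 and 81.6 CPM in CDs. It fell by 0.67 in Model (SE 0.17, adjusted p = 0.0123, edgeR). Etfa, the alpha subunit of the electron transfer flavoprotein, had 115, 119 and 132 CPM in Blank, 101, 76.8 and 71.2 CPM in Model and 72.3, 92.2 and 91.2 CPM in CDs, and fell by 0.55 (SE 0.15, adjusted p = 0.0177, edgeR). For both genes every treated library lay below every Blank library. The beta subunit Etfb was listed at 0.536 to 1.40 CPM in all 9 libraries, from 8 to 19 reads, although it acts together with Etfa. The table also holds Etfbl, which covers 13673 bp of the same strand as Etfb and had 0 reads, so the count of Etfb is uncertain. Its difference was -0.40 (SE 0.37, adjusted p = 0.406, edgeR). Without Model 3 the calls of Etfdh (adjusted p = 0.0513, edgeR) and Etfa (0.0715) were lost, and that of Etfa also without Blank 3 (0.0554) or Model 2 (0.0638).

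Peroxisomes shorten chains that mitochondria handle poorly. Ehhadh, the bifunctional peroxisomal enzyme and a known PPARα target, had 49.6, 47.5 and 53.6 CPM in Blank, 28.7, 16.3 and 17.8 CPM in Model and 12.1, 24.3 and 30.3 CPM in CDs. It fell by 1.27 in Model (SE 0.32, adjusted p = 0.0130, edgeR), with no overlap between Blank and the treated libraries. Acaa1a, the peroxisomal thiolase, had 71.0, 67.0 and 65.5 CPM in Blank, 55.8, 46.8 and 48.8 CPM in Model and 49.1, 67.4 and 63.0 CPM in CDs, and fell by 0.43 (SE 0.13, adjusted p = 0.0247, edgeR). The Blank libraries lay above the Model libraries, whereas CDs 2 fell within the Blank range. Acaa1a overlaps Myd88 (45.1 CPM on average) on the other strand over 1736 bp and is uncertain, because neither the library protocol nor the counting is known to keep the strand. Pex11a, which divides peroxisomes, had 21.6, 17.9 and 19.9 CPM in Blank, 25.9, 15.8 and 19.0 CPM in Model and 15.3, 22.1 and 20.2 CPM in CDs. The groups overlapped and the difference was 0.027 (SE 0.21, adjusted p = 0.924, edgeR), turning to -0.19 without Model 1 and -0.031 without Blank 2. Ehhadh lost its call without Model 3 (adjusted p = 0.0526, edgeR). Acaa1a lost it without any 1 of Blank 1, Blank 2, Model 2 and Model 3 (edgeR adjusted p from 0.0639 to 0.0869) and with a replicate block (0.0561).

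Of the 6 tested genes for uptake, binding and activation of fatty acids, 1 rose and 2 fell. Across all tested genes 24.5% rose and 19.6% fell. Slc27a2, a very long-chain acyl-CoA synthetase and transporter, had 12.3, 6.83 and 7.004 CPM in Blank, 1.67, 0.854 and 1.47 CPM in Model and 0.448, 0.418 and 1.18 CPM in CDs. It fell by 2.73 in Model (SE 0.43, adjusted p = 0.00153, edgeR), with a wide gap between the lowest Blank and the highest treated library. Fabp2, the intestinal fatty acid binding protein, had the highest mean FPKM of the 38 genes in Blank. It varied widely there, with 138, 56.9 and 283 CPM, against 37.7, 11.6 and 21.2 CPM in Model and 6.39, 9.32 and 27.2 CPM in CDs. Fabp2 fell by 2.77 in Model (SE 0.72, adjusted p = 0.0146, edgeR). Cd36, a fatty acid translocase, ran the other way, with 31.4, 61.8 and 45.0 CPM in Blank, 98.6, 102 and 92.0 CPM in Model and 68.3, 108 and 89.9 CPM in CDs. Every treated library exceeded every Blank library, and Cd36 rose by 1.08 in Model (SE 0.24, adjusted p = 0.00747, edgeR). Slc27a4 (-0.27, adjusted p = 0.163, edgeR) and the acyl-CoA synthetases Acsl1 (-0.12, adjusted p = 0.452) and Acsl5 (-0.31, adjusted p = 0.131) were not called. Acsl5 overlaps Zdhhc6 on the other strand over 26430 bp and is uncertain, and it was called lower without CDs 1 (adjusted p = 0.00815, edgeR). Fabp1, the liver-type binding protein, had 0 to 2 reads in each library, under the 3 reads taken as the limit of detection. Fabp2 lost its call without Blank 3 (adjusted p = 0.0508, edgeR), Model 2 (0.0511) or Model 3 (0.0560).

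Markers of other cell types moved with these members. All 6 endothelial markers rose in Model, from a summed 176 to 187 CPM in Blank to 397 to 538 CPM in Model and 365 to 479 CPM in CDs. Relative to 1000 CPM of those markers, Cd36 stood at 169, 350 and 241 CPM in Blank and 249, 190 and 175 CPM in Model, so the groups overlapped. All 6 macrophage markers rose as well, from a summed 193 to 223 CPM to 726 to 1051 CPM in Model. Of 8 small intestinal enterocyte markers, 4 could be tested and 2 fell. Their summed level was 167 to 198 CPM in Blank, 41.0 to 91.4 CPM in Model and 57.7 to 86.9 CPM in CDs. Most of that sum was Slc5a1 alone, at 155 to 188 CPM in Blank and 31.1 to 83.0 CPM in Model. Sis, Lct and Apoa1 lay at or below 0.469 CPM and Apoa4 at 0 in all 9 libraries. The part of these cell types in the values of Cd36, Fabp2 and Slc27a2 was not tested.

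Among the remaining PPAR targets, 3 of 7 rose and 2 fell, where 24.5% and 19.6% of all tested genes did so. Angptl4 (ENSMUSG00000002289, chromosome 17, 33992724 to 34000804, minus strand in the deposited coordinates) encodes a secreted inhibitor of lipoprotein lipase. It had 1.80, 1.502 and 1.55 CPM in Blank, 33.2, 44.1 and 48.9 CPM in Model and 35.8, 26.1 and 18.6 CPM in CDs. The treated libraries thus lay far above all Blank libraries. Angptl4 was 25.8-fold higher in Model than in Blank (log2 fold change 4.69, SE 0.29, adjusted p = 1.45e-04, edgeR). Creb3l3 (ENSMUSG00000035041, chromosome 10, 80920158 to 80934708, minus strand), a membrane-bound transcription factor of lipid metabolism known from liver and intestine, had 2.25, 3.89 and 3.10 CPM in Blank, 9.22, 9.06 and 6.36 CPM in Model and 2.49, 1.55 and 2.43 CPM in CDs. All 3 Model libraries lay above the other 6, and Creb3l3 rose 2.66-fold (log2 fold change 1.41, SE 0.28, adjusted p = 0.00429, edgeR). Pdk4, the kinase that shuts off pyruvate dehydrogenase, had 10.5, 6.42 and 15.0 CPM in Blank, 35.3, 15.8 and 17.5 CPM in Model and 6.65, 9.56 and 12.4 CPM in CDs. Model 1 stood apart from the other Model libraries, and Blank 3 lay just under the lowest of them. Pdk4 rose by 1.10 (SE 0.40, adjusted p = 0.0488, edgeR), a call that was lost without Model 1 (0.65, adjusted p = 0.164) and without any 1 of Blank 1, Blank 2, Model 3, CDs 2 and CDs 3 (edgeR adjusted p from 0.0515 to 0.139).

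The other targets moved less. Plin2, the coat protein of lipid droplets, had 101, 139 and 105 CPM in Blank and 191, 119 and 133 CPM in Model, which overlapped (0.36, SE 0.21, adjusted p = 0.185, edgeR). Ucp2, a mitochondrial carrier, fell by 0.41 (SE 0.12, adjusted p = 0.0244, edgeR), with Model libraries of 267 to 308 CPM below Blank libraries of 340 to 398 CPM. Acot1, a cytosolic thioesterase, had 4.37, 4.03 and 2.80 CPM in Blank and 2.105, 1.99 and 2.08 CPM in Model, and fell by 0.86 (SE 0.26, adjusted p = 0.0278, edgeR). Its mitochondrial relative Acot2 gave 0.27 (SE 0.20, adjusted p = 0.283, edgeR). Acot1 and Acot2 are near-identical neighbours, 15616 bp apart, between which counting can split reads, so each is uncertain alone. Ucp2 lost its call without any 1 of Blank 1, Blank 3, Model 2 and Model 3 (edgeR adjusted p from 0.0686 to 0.0848), and Acot1 without any 1 of Blank 1, Blank 2, Model 1, Model 2 and Model 3 (0.0521 to 0.0968). The calls of Angptl4, Creb3l3, Cd36, Eci1 and Slc27a2 in Model versus Blank held in all 18 alternatives tried.

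**Figure D2:**
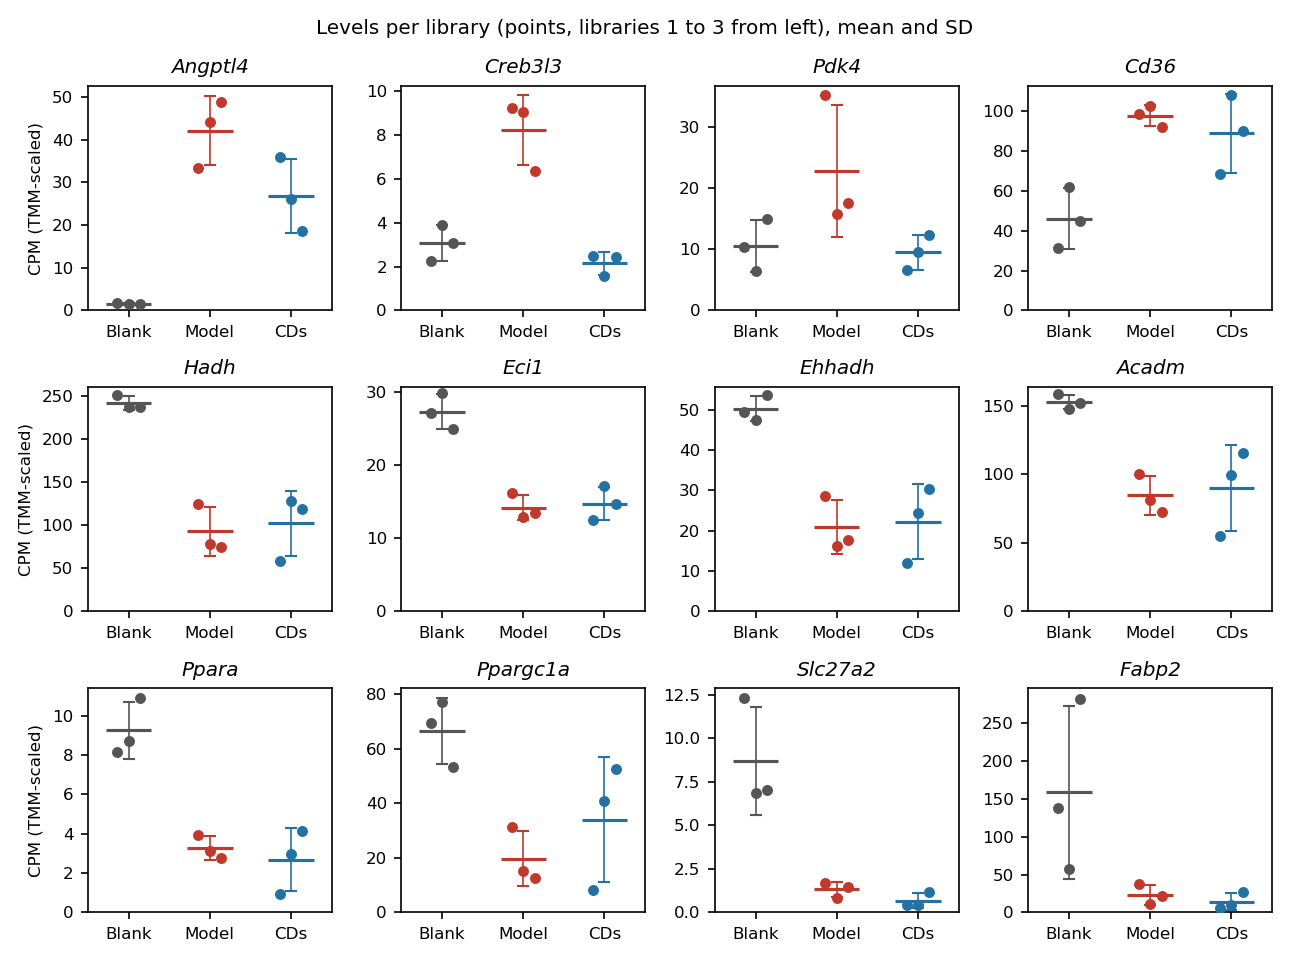
Level of 12 members in each library in TMM-scaled CPM (linear axes from 0), with points for libraries 1 to 3 from left and bars for the mean and standard deviation of each group of 3. Angptl4 lies at 1.502 to 1.80 CPM in Blank and at 18.6 to 48.9 CPM in the 6 DSS-treated libraries, Creb3l3 is high in Model, and Hadh, Ehhadh and Acadm lie below Blank in every treated library.

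Adipose transcripts rose in Model beside Angptl4, Creb3l3, Cd36 and Pdk4. The 8 adipocyte markers summed to 14.3 to 40.8 CPM in Blank, 62.0 to 156 CPM in Model and 22.8 to 57.4 CPM in CDs. In Model 5 of them rose, where 24.5% of all tested genes did. The CDs sums thus overlapped Blank, as did the CDs levels of Creb3l3 and Pdk4. Angptl4 and Cd36 lay above Blank in every CDs library. Adipoq, a defining marker, was at 0.707 to 2.88 CPM in Blank and at 3.32 to 29.5 CPM in Model. Per 1000 CPM of these markers, Angptl4 had 126, 70.5 and 37.9 CPM in Blank and 213, 712 and 362 CPM in Model, and was the 1 member that lay higher in Model without overlap (0.731% of all tested genes). On this scale 34 members lay lower without overlap (72.1% of all tested genes). Pdk4 was among them, with 731, 301 and 366 CPM in Blank and 227, 255 and 129.8 CPM in Model. Creb3l3 had 157, 183 and 75.8 CPM in Blank and 59.1, 146 and 47.1 CPM in Model, and Cd36 had 2188, 2901 and 1103 CPM in Blank and 633, 1652 and 681 CPM in Model. For these 2 genes the groups overlapped. Of the 4 genes, Angptl4 alone stood higher in Model without overlap on this scale. Model 2, with the lowest adipocyte sum of the 3 Model libraries and 0 CPM of pancreatic markers, had 44.1 CPM of Angptl4 and 9.06 CPM of Creb3l3. Model 1, with the highest adipocyte sum, had the highest Pdk4 and Creb3l3 but the lowest Angptl4 of the 3 Model libraries. The part of adipose tissue in the values of these genes was not tested.

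The oxidation genes and Angptl4 were then set against each other within each library. The summed level of the 18 oxidation genes was 2367, 2119 and 2185 CPM in Blank, 1995, 1324 and 1314 CPM in Model and 1279, 1851 and 1980 CPM in CDs. Group means were 2223 ± 128 (SD, n = 3), 1544 ± 390 and 1703 ± 373 CPM, so the treated groups spread more and lay below every Blank library. Angptl4 averaged 1.62 ± 0.16, 42.1 ± 8.02 and 26.8 ± 8.63 CPM in the same groups. Per length, the FPKM of Angptl4 was 0.0856, 0.0773 and 0.0780% of the summed FPKM of the 18 genes in Blank, 1.78, 3.43 and 3.94% in Model and 2.86, 1.498 and 1.02% in CDs. The means were 0.0803 ± 0.0046%, 3.05 ± 1.13% and 1.79 ± 0.954% (SD, n = 3), and no treated library came near the Blank range. The log2 fold change of Angptl4 exceeded the median of the oxidation genes by 5.26, and by 5.03 to 5.59 with any 1 library left out. Members were chosen with earlier results known, so these values are a description with no test.

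**Figure D3:**
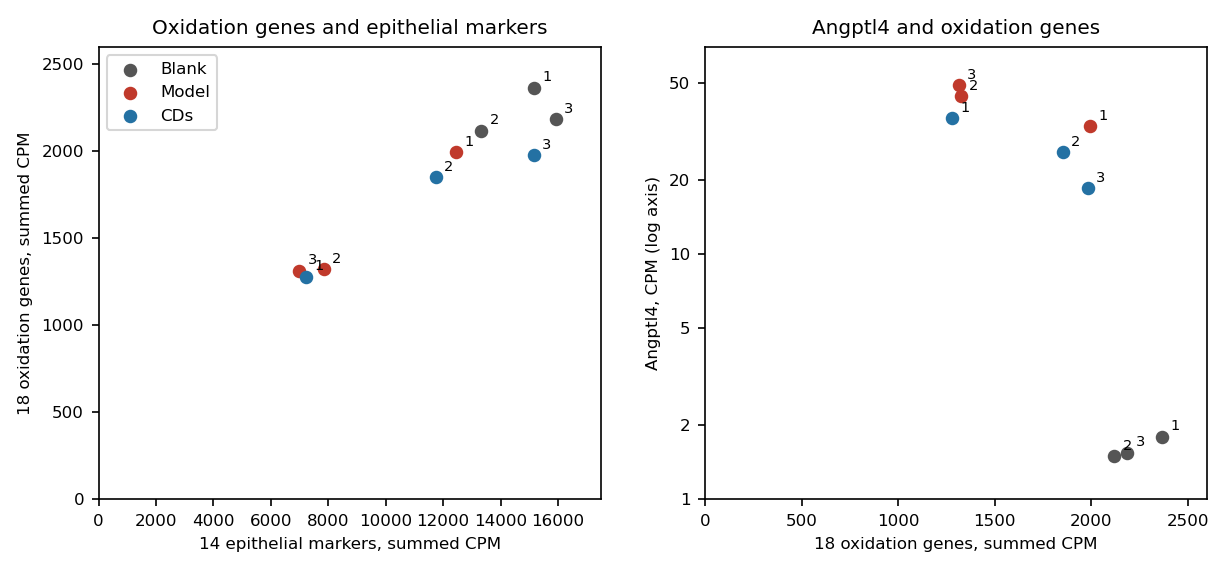
Left, summed level of the 18 oxidation genes against that of 14 epithelial markers, and right, Angptl4 (log axis) against the oxidation sum, in TMM-scaled CPM with 1 numbered point a library. The 3 libraries with the lowest epithelial sums (6990 to 7834 CPM) have the lowest oxidation sums (1279 to 1324 CPM), while Angptl4 separates Blank from the treated libraries.

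The epithelial share of the RNA moved with the oxidation genes. The 14 colonocyte and epithelial markers summed to 15158, 13333 and 15929 CPM in Blank, 12440, 7834 and 6990 CPM in Model and 7212, 11747 and 15150 CPM in CDs. Of the 14, 4 fell in Model and 0 rose, where 19.6% and 24.5% of all tested genes did so. Their median log2 fold change was -0.74, and 10 lay below Blank without overlap (30.8% of all tested genes). A ratio to the epithelial sum was computed for each gene, a choice made after the values were seen. Per 100 CPM of epithelial markers, the 18 oxidation genes summed to 15.6, 15.9 and 13.7 CPM in Blank, 16.0, 16.9 and 18.8 CPM in Model and 17.7, 15.8 and 13.1 CPM in CDs. On this scale the Model libraries lay just above the Blank libraries and the CDs libraries overlapped both. Of the 18 genes, 12 overlapped between Model and Blank, 4 lay above (Cpt2, Slc25a20, Acadl and Eci2) and 2 lay below (Hadh and Ehhadh). Across all tested genes, 53.5% lay above and 4.6% below without overlap.

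Across the 37 members, the ratio to the epithelial sum lay higher in Model without overlap for 13 and lower for 6, where 53.5% and 4.6% of all tested genes did so. The 6 lower ones were Ppara, Ppargc1a, Hadh, Ehhadh, Fabp2 and Slc27a2. Per 1000 CPM of epithelial markers, Hadh stood at 16.5, 17.8 and 14.9 CPM in Blank, 10.04, 10.03 and 10.7 CPM in Model and 8.16, 10.9 and 7.87 CPM in CDs. Ehhadh stood at 3.27, 3.56 and 3.36 CPM in Blank, 2.30, 2.08 and 2.55 CPM in Model and 1.68, 2.07 and 1.998 CPM in CDs. For both genes the Model libraries lay closer together on this scale than in CPM, and all treated libraries lay below Blank. The share of each gene's difference that reflects cell number was not tested.

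**Figure D4:**
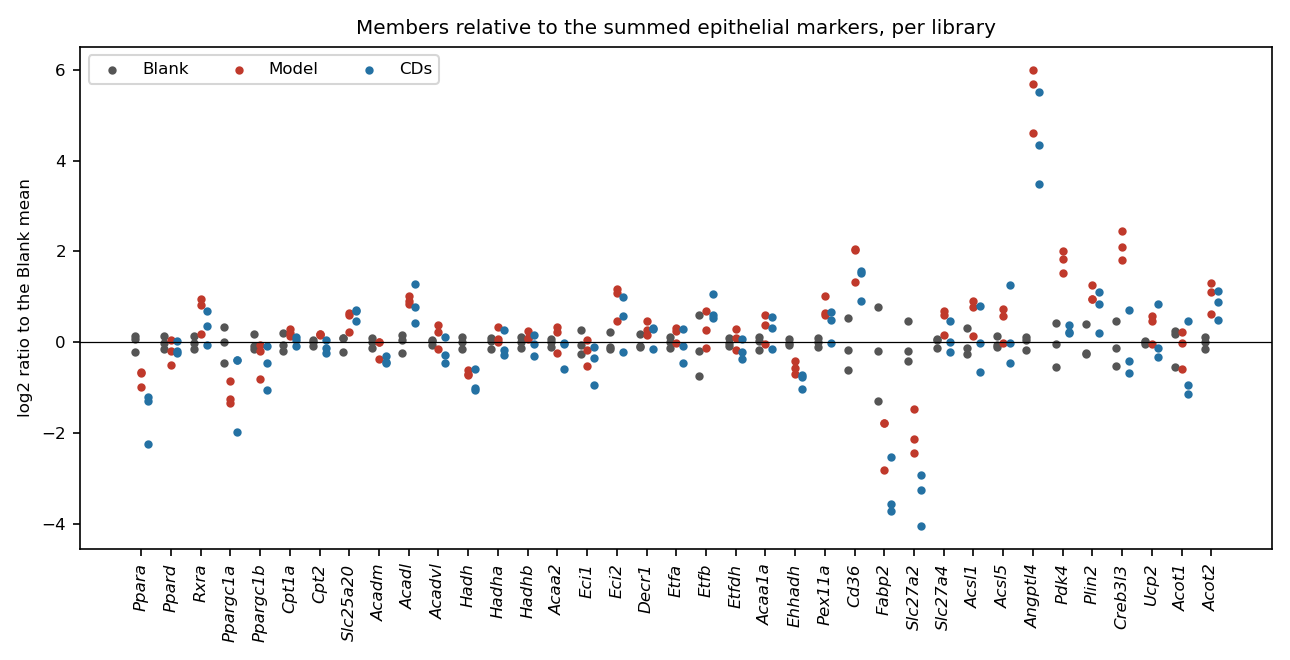
Ratio of each tested member to the summed epithelial markers in each library, on a log2 scale relative to the Blank mean, with 3 points a group. Of the 37 members, 13 lie higher and 6 lower in Model than in Blank without overlap, the latter including Hadh, Ehhadh, Ppara and Ppargc1a.

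The second comparison, CDs versus Model, asks whether the carbon dots changed these levels under DSS. Among the 14921 tested genes edgeR called 0, and 788 (5.28%) had an unadjusted p under 0.05, while DESeq2 called 50. None of the 37 members was called by edgeR. The members with an unadjusted p under 0.05 were Creb3l3, Pdk4 and Angptl4, each lower in CDs, and DESeq2 called Creb3l3 alone among the members. The groups did not overlap for 4 members (7.99% of all tested genes), with Etfb higher and Acsl1, Pdk4 and Creb3l3 lower. The median log2 fold change was 0.057 over the members and 0.025 over all tested genes.

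Creb3l3 had the smallest p of all 14921 genes in this comparison in edgeR and in DESeq2. Its CDs libraries, 1.55 to 2.49 CPM, lay below all Model libraries, 6.36 to 9.22 CPM, and in or below the range of Blank. The log2 fold change was -1.93 (SE 0.29), with an adjusted p of 0.891 in edgeR and of 3.79e-06 in DESeq2 (-1.96, SE 0.31). Against Blank, CDs gave -0.52 (SE 0.29, adjusted p = 0.191, edgeR). These comparisons share the Model or CDs libraries and are no independent evidence of each other. Pdk4 gave -1.26 (SE 0.40, adjusted p = 0.891, edgeR), with 6.65 to 12.4 CPM in CDs below the 15.8 to 35.3 CPM of Model. The value was -0.81 without Model 1, the library with the most Pdk4 and the highest adipocyte sum, and -0.53 without the 3 libraries with pancreatic transcripts. Angptl4 gave -0.65 (SE 0.23, adjusted p = 0.927, edgeR), and its groups overlapped, since CDs 1 (35.8 CPM) exceeded Model 1 (33.2 CPM). The adipocyte markers, of which edgeR called 0 of 8 and gave 5 an unadjusted p under 0.05, had a median log2 fold change of -1.69 in the same comparison. Per 1000 CPM of adipocyte markers, the Model and CDs libraries overlapped for Creb3l3, Pdk4 and Angptl4.

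The oxidation genes gave small differences between CDs and Model. Of 18, 15 had a value above 0 and 0 were called, with a median of 0.093 and 0 with an unadjusted p under 0.05 in edgeR. All 14 epithelial markers also had a value above 0, with a median of 0.26, 0 called and 0 with an unadjusted p under 0.05 in edgeR. CDs 1 held the lowest values of the 3 CDs libraries for Cpt1a, Cpt2, Hadh, Acadm, Ehhadh, Etfdh and Ppargc1a, and also the lowest epithelial sum, 7212 CPM. Per 100 CPM of epithelial markers it had 17.7 CPM of oxidation genes, the highest of the 3. Without Model 1, Model 3 and CDs 1, which hold pancreatic transcripts, 9 members were called in a fit where Model 2 stands alone and borrows its spread from the Blank and CDs libraries. These were Ppargc1a (1.64), Slc25a20 (1.11), Ppard (1.09), Ehhadh (0.74), Hadh (0.66), Decr1 (0.58) and Hadhb (0.52) on the higher side, and Creb3l3 (-2.19, adjusted p = 0.0208, edgeR) and Angptl4 (-0.98, adjusted p = 0.0364) on the lower side. In that fit 4.88% of all tested genes were called higher and 3.17% lower. The ratio to the epithelial sum lay lower in CDs than in Model without overlap for 7 members and higher for 0, where 2.11% and 0.295% of all tested genes did so. The 7 were Ppara, Cpt1a, Cpt2, Ehhadh, Slc27a2, Pdk4 and Creb3l3.

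The third comparison, CDs versus Blank, asks how colon given DSS and carbon dots differed from untreated colon. Of 37 members, 2 were called higher, where 21.8% of all tested genes were, and 13 lower, where 13.8% were. Angptl4 was 16.5-fold higher than in Blank (log2 fold change 4.04, SE 0.29, adjusted p = 2.71e-04, edgeR) and Cd36 was higher by 0.94 (SE 0.24, adjusted p = 0.0164). Of the oxidation genes, 8 of 18 fell, with a median of -0.50. Slc27a2 fell by 3.70 (SE 0.46, adjusted p = 8.44e-04, edgeR) and Fabp2 by 3.49 (SE 0.75, adjusted p = 0.00788), where Model versus Blank gave -2.73 and -2.77. Hadh fell by 1.25 (adjusted p = 0.0116, edgeR), Ehhadh by 1.18 (0.0208), Eci1 by 0.89 (0.00304) and Acadm by 0.77 (0.0353). Ppara fell by 1.79 (SE 0.42, adjusted p = 0.0113, edgeR), whereas Ppard (-0.53, adjusted p = 0.144) and Ppargc1a (-0.98, adjusted p = 0.204) were not called. Acsl1 fell by 0.38 (SE 0.13, adjusted p = 0.0462, edgeR), with 31.7 to 41.2 CPM in CDs below 41.7 to 54.2 CPM in Blank. The groups did not overlap for 21 members, 3 higher (28.2% of all tested genes) and 18 lower (25.7%). The 13 lower became 7 without Blank 1, where 8.6% of all tested genes were called lower, 8 without Blank 2 (7.11%), 7 without Blank 3 (8.19%) and 8 without CDs 2 (8.08%). They became 1 without Blank 2 and Blank 3 (0.699%) and 17 without Model 1, Model 3 and CDs 1 (16.6%). The 2 higher became 1 without Blank 3 (16.6% of all tested genes higher) or CDs 2 (16.8%), 3 without Model 1 (21.9%) and 4 without Model 1, Model 3 and CDs 1 (21.4%).

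A wider list of 81 genes of the same pathways, chosen without regard to how they moved but with earlier results of these data known, held 72 tested genes. In Model, 15 rose and 27 fell, where 24.5% and 19.6% of all tested genes did so, with a median log2 fold change of -0.20. In CDs versus Model edgeR called 0 and gave 7 an unadjusted p under 0.05. In CDs versus Blank 12 rose and 22 fell, where 21.8% and 13.8% of all tested genes did so. Without Model 1, Model 3 and CDs 1, Model 2 stands alone in its group. In that fit more genes of the list were called lower than higher in Model versus Blank and in CDs versus Blank. Among all tested genes, more were called higher than lower in both. Without Blank 2 and Blank 3, which leaves 1 Blank library, the order in the list was reversed. More of its genes were then called higher than lower in both comparisons, as among all tested genes. The 3 higher genes with the smallest p bind fatty acids or release them from lipoproteins. Fabp5, a binding protein of skin and macrophages, had 11.2, 9.22 and 10.4 CPM in Blank and 56.8, 106 and 103 CPM in Model, and rose by 3.11 (SE 0.26, adjusted p = 2.25e-04, edgeR). Fabp4, the binding protein of adipocytes, endothelium and macrophages, rose by 1.89 (SE 0.21, adjusted p = 4.12e-04), from 28.02 to 35.6 CPM in Blank to 106 to 133 CPM in Model. Lpl, the lipoprotein lipase that Angptl4 inhibits, had 29.6, 45.2 and 61.0 CPM in Blank, 171, 177 and 229 CPM in Model and 159, 123 and 104 CPM in CDs. Every treated library exceeded every Blank library, and Lpl rose by 2.09 in Model (SE 0.27, adjusted p = 6.38e-04, edgeR). All 6 endothelial, all 6 macrophage and 5 of 8 adipocyte markers, given above, rose beside these 3 genes, and their part was not tested. The lower genes with the smallest p were Acaca, which makes malonyl-CoA for fatty acid synthesis, Acot7, an acyl-CoA thioesterase, and Nrip1, a corepressor of nuclear receptors. Acaca fell by 0.79 (SE 0.09, adjusted p = 4.36e-04, edgeR), from 87.8, 94.0 and 98.7 CPM in Blank to 52.5, 51.1 and 58.6 CPM in Model. Acot7 fell by 0.85 (SE 0.12, adjusted p = 8.74e-04, edgeR) and Nrip1 by 0.90 (SE 0.13, adjusted p = 0.00105). In CDs, Acaca lay at 53.9 to 59.5 CPM, Acot7 at 35.0 to 43.5 CPM and Nrip1 at 82.3 to 108 CPM, all below their Blank libraries.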

How the data were processed

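Poly-A RNA of colon from 9 mice was sequenced, and the titles of the samples gave their groups and numbers. The submitters' processing notes name HTSeq 0.9.1, HISAT2 2.1.0 and fastp 0.22.0, with the genome build not given in the sources used here. The authors deposited, per the file headers, whole-number read counts together with FPKM values, by gene and library. The deposited FPKM values equalled count over gene length and library total in 100% of values (relative tolerance 1e-06). The 51 genes without a symbol stayed in the fit under their identifiers.

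Counts of all 9 libraries were fitted with edgeR 4.0.16 in R 4.3.3 (filterByExpr, TMM, 1 coefficient per group, quasi-likelihood F test, two-sided), with p-values adjusted by Benjamini and Hochberg over 14921 genes. The SE is the fold change over the square root of F. Library totals were 13868864 to 19940300 reads. Replicates of a group differed beyond sampling noise, so none was counted as a duplicate. The series describes replicates as biological, and no source ties a number to a shared animal or day.

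The members and all lists were chosen with earlier results of these data known, so no test was made over a list. Values in each library are given for 2 members of each role group (all of a group of 3), ranked by p in Model versus Blank, for those called higher there, and for 2 ranked by p in CDs versus Model. Of the wider pathway list, the 3 higher and 3 lower genes with the smallest p are named. Per-library values of further members (such as Acadm, Ppargc1a, Fabp2, Acadl, Plin2 and Acot1) were added after their values were seen. Markers of skeletal muscle and liver were also summed. Of the muscle genes 4 of 5 could be tested and 1 rose in Model. Of the liver genes 3 of 5 could be tested, 1 rose and 2 fell. All 6 neutrophil markers rose.

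Alternatives were a replicate block, a fit of the 6 libraries compared, DESeq2 size factors or upper-quartile scaling in edgeR, DESeq2 1.42.0, no expression filter, limma 3.58.1 on log2(FPKM + 1), each library left out, the libraries with pancreatic transcripts left out and, added after the data were seen, Blank 2 and Blank 3 left out.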

Additional observations from a re-analysis of the deposited data

How the results depend on the processing

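With each library left out in turn, Model versus Blank called 4405 to 7459 genes, CDs versus Model 0 to 0 and CDs versus Blank 3398 to 5540. Members called higher ranged from 3 to 4, 0 to 0 and 1 to 3 in these comparisons. Members called lower ranged from 4 to 21, 0 to 0 and 7 to 14. The share of all tested genes called higher ranged from 19.3 to 25.8% in Model versus Blank and from 15.4 to 21.9% in CDs versus Blank. The share called lower ranged from 9.79 to 23.6% and from 7.11 to 14.7%. Oxidation genes called lower in Model versus Blank ranged from 3 to 14 and those called higher from 0 to 0. The gap between Angptl4 and the oxidation median ranged from 5.03 to 5.59, and it was 3.66 with limma on log2(FPKM + 1), a scale that understates changes of low genes. Without Blank 2 and Blank 3, which leaves 1 Blank library, 1536 genes were called in Model versus Blank and 465 in CDs versus Blank, with 2 and 1 members lower and 1 oxidation gene lower. In CDs versus Model, DESeq2 called 50 genes and 1 member lower. Without Model 1, Model 3 and CDs 1, which leaves 1 Model library, that comparison called 1241 genes, 7 members higher and 2 lower, and CDs versus Blank called 4 members higher. For the changes on leaving out libraries, the alternative has fewer samples, and no other cause was tested.

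No reversal was of a called gene. In Model versus Blank, Acadl turned to -0.035 without Model 1 and -0.0070 without the pancreatic libraries. Pex11a turned to -0.031 without Blank 2, -0.19 without Model 1, -0.33 without the pancreatic libraries and -0.093 without Blank 2 and Blank 3. Slc25a20 turned to 0.028 without Model 2, and Acsl1 to 0.083 and Etfb to 0.26 without Blank 2 and Blank 3. With each library left out in turn, Acadl ranged from -0.035 to 0.34, Pex11a from -0.19 to 0.18 and Slc25a20 from -0.57 to 0.028.

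Shared replicate numbers did not pair the libraries: deviations of same-numbered libraries correlated at -0.37 to 0.21, and in 7 of 18 checks a library correlated best with its own number. With a replicate block, 5672 genes were called in Model versus Blank, 0 in CDs versus Model and 4475 in CDs versus Blank. In Model versus Blank 3 members were higher and 14 lower, where 23.2% and 14.9% of all tested genes were. In CDs versus Blank 2 members were higher and 9 lower, where 19.9% and 10.1% of all tested genes were. The block left 8 oxidation genes lower and 0 higher, and the Angptl4 gap at 5.28. Acaa1a, Hadha, Hadhb, Pdk4 and Ppargc1a lost their calls under it. With 3 libraries a group, counts of calls near the threshold move with single libraries, and Fabp1 and Etfb have too few reads to describe.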
